A study of Homo sapiens with 3 samples.

Results

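The nuclear lamina and envelope genes examined here are 10 genes that encode the filaments beneath the inner nuclear membrane, the membrane proteins that hold them, and the proteins that span the envelope. They were LMNB1, LMNB2, LMNA, LBR, TMPO, EMD, BANF1, SUN1, SUN2 and SYNE2, chosen by name for their place in the envelope, and every MATR3 cluster that the authors' tables assign to one of these names was taken. That gave 116, 125 and 99 clusters in replicates 1, 2 and 3, out of 133088, 131679 and 124040 clusters in all. The 10 genes are among 13548 annotated genes with a cluster in at least 1 replicate. The 340 clusters held 3864 reads.

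The clusters came from PAR-CLIP, in which RNA is labelled with a photoreactive uridine analogue and crosslinked to protein, and crosslinked uridines are read as T-to-C changes. RNA bound by MATR3, a nuclear RNA-binding protein, was recovered with an antibody against it from HEK293 cells of wild-type genotype with no treatment. HEK293 is an established human embryonic kidney line. All 3 biological replicates belong to 1 group, and neither a control library nor a MATR3-deficient sample was analysed here, so clusters were compared between genes, between parts of genes and between replicates.

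The lamina is a meshwork of lamin filaments that supports the nucleus and anchors chromatin. Inner membrane proteins such as LBR and emerin tie the lamina and chromatin to the envelope, BANF1 crosslinks DNA at its surface, and the LINC complex of SUN proteins and nesprins connects the lamina to the cytoskeleton. An intact envelope keeps nuclear DNA away from sensors in the cytosol, which is the setting in which these genes bear on a study of MATR3 and cGAS-STING.

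Introns held 276 of the 340 clusters, and only a minority of sites came back at the same position in another replicate. A single stretch, in intron 7 of LBR, was covered in all 3 replicates. It lies at chr1:225413172-225413210 (hg38, minus strand), 527 nt from the nearest exon. The deposited sequences of its clusters are shown because they are the one stretch shared by every library, and capitals mark the 30 nt common to them.
LBR intron 7, replicate 1: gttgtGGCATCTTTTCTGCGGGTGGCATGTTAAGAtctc
LBR intron 7, replicate 2: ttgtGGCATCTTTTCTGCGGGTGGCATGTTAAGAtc
LBR intron 7, replicate 3: GGCATCTTTTCTGCGGGTGGCATGTTAAGA
The clusters held 5, 7 and 7 reads in replicates 1, 2 and 3, from 3, 2 and 2 distinct reads. Every one of these reads carried a T-to-C change. No deposited cluster had fewer than 4 such reads, so a high share is built into clusters of this size. The shared stretch includes ATCTT, the DNA form of a pentamer known for MATR3.

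With the shared bases again in capitals and hg38 coordinates, some of the sites shared by 2 replicates are shown for comparison of base content. They lie in LMNB1 intron 5 (chr5:126812641-126812666 and chr5:126816482-126816513, plus strand), LBR intron 10 (chr1:225409628-225409667, minus strand), SUN1 intron 6 (chr7:851825-851870, plus strand), LMNA intron 11 (chr1:156138993-156139025, plus strand) and the long exon of TMPO-202 (chr12:98533395-98533436, plus strand).
LMNB1 intron 5, first site, replicate 1: AATAACTTCCGCTTCTATTTTCCTCA
LMNB1 intron 5, second site, replicate 3: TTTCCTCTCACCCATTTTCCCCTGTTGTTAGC
LBR intron 10, replicate 3: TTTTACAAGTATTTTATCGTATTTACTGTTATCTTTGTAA
SUN1 intron 6, replicate 1: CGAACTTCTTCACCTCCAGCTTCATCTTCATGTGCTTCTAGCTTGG
LMNA intron 11, replicate 2: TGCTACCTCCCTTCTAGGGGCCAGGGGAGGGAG
TMPO-202 long exon, replicate 1: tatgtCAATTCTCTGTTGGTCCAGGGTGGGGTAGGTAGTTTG
Bases C and T made up 73.1% and 81.2% of the shared bases at the LMNB1 sites, 65.0% at LBR intron 10 and 69.6% at SUN1 intron 6. The share was 45.5% at the LMNA site and 48.6% at the TMPO site. At the LMNB1 intron 5 sites shared by 2 replicates but not printed, it was 70%, 42.5% and 37.5%. Across all clusters of the 10 genes, C and T made up 57.04%, 54.15% and 56.78% of bases in replicates 1, 2 and 3. Whether shared sites differ from other clusters in base content was not tested. ATCTT stands within the shared bases at LBR intron 10 and SUN1 intron 6.

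In 8 of the genes a cluster was found in every replicate, a count to be read against the 40.7% of protein-coding genes that did (8152 of 20007). The exceptions were SUN2, with clusters in replicates 1 and 2, and BANF1, with clusters in replicate 1. All 10 genes had a cluster in at least 1 replicate, whereas only 11159 of the 20007 protein-coding genes did. Among those 11159, 8152 had a cluster in every replicate. The shares of protein-coding genes given here are over all 20007. The same 8 genes had an intron cluster in every replicate, as did 36.6% of protein-coding genes. A 3′ UTR cluster in every replicate was present in LMNB2, LMNA and TMPO, against 7.15% of protein-coding genes, and a coding cluster in LMNB1 and TMPO, against 1.75%. Each gene's read level is given in normalised reads, that is, reads in its clusters per 1000000 reads in gene-annotated clusters. Fewer bound molecules and a lower level of the RNA cannot be told apart in these values, because no expression data were used.

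**Figure D1:**
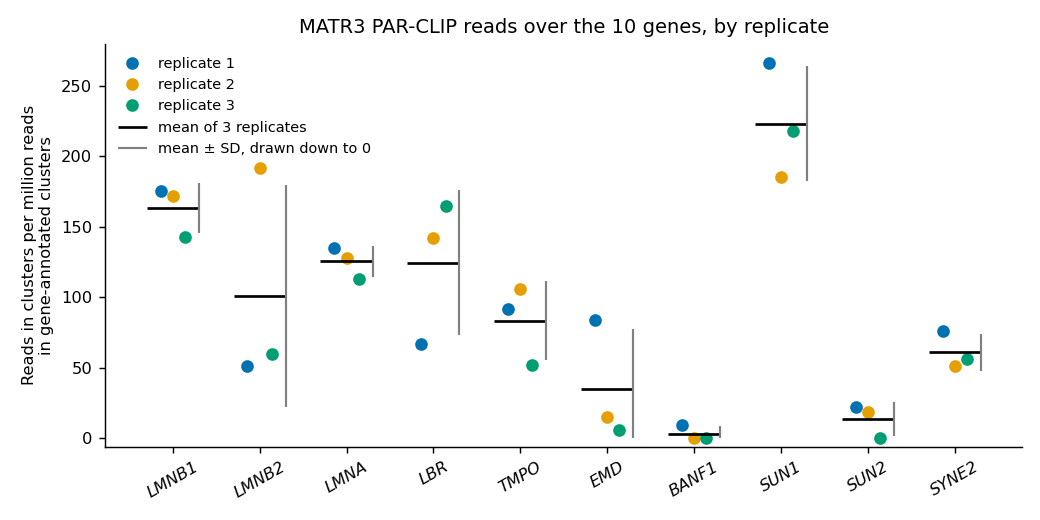
Reads in clusters of each gene per 1000000 reads in gene-annotated clusters. Points are the 3 replicates, horizontal lines their mean and vertical lines the mean ± SD (n = 3). SUN1, LMNB1 and LMNA lie above 100 in every replicate, while LMNB2 and EMD each have 1 replicate far above the other two.

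LMNB1 encodes lamin B1, a lamin that stays farnesylated and membrane-bound. Its read level was 175, 172 and 143 normalised reads in replicates 1, 2 and 3 (mean 163 ± 17.9, SD, n = 3), from 23, 21 and 19 clusters. The replicates lay close together. The gene spans chr5:126776623-126837020 on the plus strand. Intron 5 of its canonical transcript LMNB1-201 (chr5:126811899-126818921, 7023 nt) covers 11.6% of the gene and held 26 of its 63 clusters, 10, 7 and 9 in replicates 1, 2 and 3. Of these, 10 overlapped a cluster of another replicate. The share of clusters was 3.55 times the share of length, which put LMNB1 at percentile 84.7 of the 4574 genes with 20 or more clusters, whose median for the intron with most clusters was 1.72.

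The start of LMNB1 was also covered in each library. Exon 1 (732 nt), which holds the 5′ UTR and the first coding part, had 3, 2 and 2 clusters with 36, 39 and 23 reads. Of the 7, 3 were classed as 5′ UTR and 4 as coding, and 5 overlapped a cluster of another replicate. At the start of the coding part, the replicate 1 cluster overlapped those of both other replicates, which did not overlap each other. LMNB1 was the member with a 5′ UTR cluster in every replicate. Only 2.71% of the 11159 protein-coding genes with a cluster had 3 or more 5′ UTR clusters over the replicates. Intron 1, by contrast, covers 44.6% of LMNB1 and held 16 clusters. Over all of LMNB1, 30.2% of clusters (19 of 63) were found in another replicate, percentile 75.7 among 4611 genes with 20 or more clusters. The other members with that many clusters ranked lower. The percentile was 51.6 for TMPO, 49.1 for LBR, 46.8 for SUN1, 44.9 for LMNB2, 41.1 for LMNA and 22.2 for SYNE2.

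LMNB2 encodes lamin B2, the other B-type lamin. It differed more between libraries: 8, 22 and 10 clusters held 74, 255 and 81 reads, or 51.1, 192 and 59.6 normalised reads (mean 101 ± 79.0, SD, n = 3). Replicate 2 stood well above the other two, and without it the mean was 55.4. Its last exon, which is mostly 3′ UTR, held 11 of the 40 clusters, 2, 6 and 3 by replicate, all classed as 3′ UTR, and 4 of them overlapped across replicates. A count of 11 or more 3′ UTR clusters was reached in 4.01% of protein-coding genes with a cluster. Intron 1 (12129 nt) held 21 clusters, 52.5% of them on 41.4% of the gene. The strongest intron 1 site was seen in replicates 1 and 2, with 15 and 30 reads over 45 shared nt. LMNB2 clusters were rich in G and C, at 62.6% of bases, against 45.7% in LMNB1.

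LMNA encodes lamins A and C, which are made from 1 gene by alternative 3′ ends. It had 15, 17 and 15 clusters and a read level of 135, 128 and 113 normalised reads (mean 126 ± 11.2, SD, n = 3), again close together. The stretch from the end of exon 10 to the end of the canonical transcript LMNA-205 (chr1:156137744-156140081, plus strand) is the part in which the lamin A and lamin C ends diverge. It covers 4.07% of the gene and held 14 of 47 clusters and 43.5% of the reads, with 77, 100 and 49 reads by replicate. Its clusters lay in introns 10 and 11 of LMNA-205 (3 and 5), in exon 11 (2) and in exon 12 (4). The exon 11 clusters were deposited as crossing from coding sequence into an intron, and 3 of the exon 12 clusters as 3′ UTR. The intron 11 clusters deposited as intron, with the site printed above, overlap an exon of another coding transcript, LMNA-229. The remaining intron 11 cluster was deposited as crossing from intron into coding sequence. The largest LMNA cluster, 55 reads from 20 distinct reads in intron 10, was found in replicate 1 alone. The window was chosen after its values were seen and was not tested.

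Elsewhere in LMNA, intron 1 (15342 nt) held 20 clusters, 8, 7 and 5 by replicate, and 2 of them overlapped. A further 11 clusters lay before the canonical start, all deposited as intron. The LMNA clusters held no ATCTT.

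**Figure D2:**
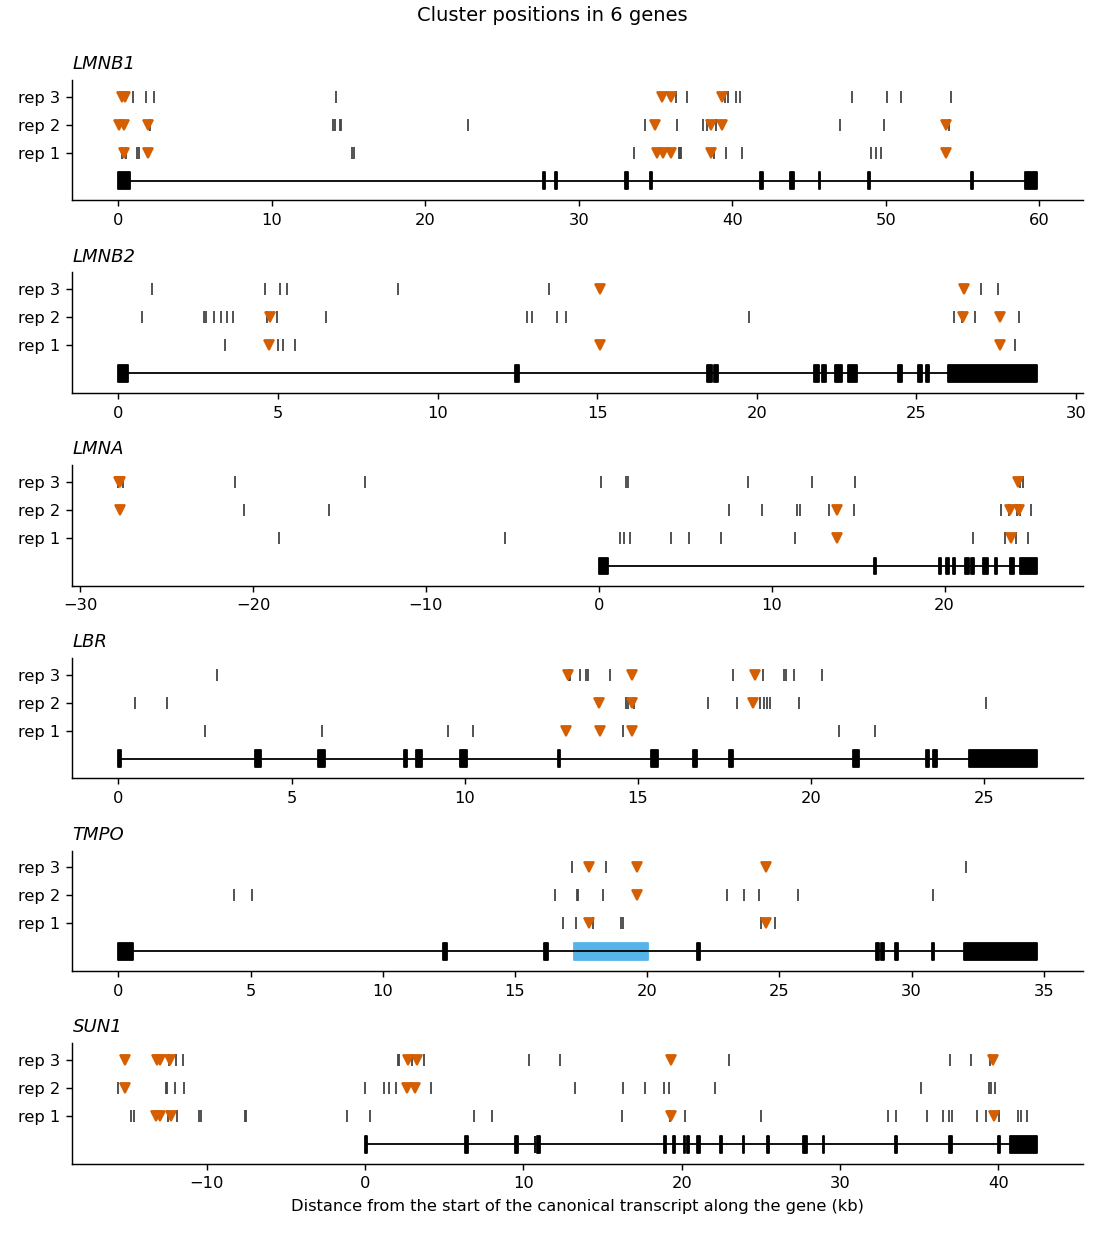
Cluster positions along LMNB1, LMNB2, LMNA, LBR, TMPO and SUN1, by replicate, against distance from the start of the canonical transcript in kb. Black boxes are canonical exons, the light blue box is the long exon of TMPO-202, triangles are clusters that overlap a cluster of another replicate and ticks are the rest. Clusters gather in intron 5 of LMNB1 (26 of 63), introns 7 and 10 of LBR (17 and 15 of 42) and the TMPO-202 exon (12 of 27).

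LBR encodes the lamin B receptor, an inner membrane protein that binds lamin B and heterochromatin and has sterol reductase activity. Clusters numbered 10, 16 and 16, and the read level was 67.0, 142 and 165 normalised reads (mean 125 ± 51.3, SD, n = 3). Replicate 1 was the low one. Most clusters lay in 2 introns of LBR-201. Intron 7 (chr1:225412646-225415277, 2632 nt) held 17 of 42 clusters, 4, 5 and 8 by replicate, of which 7 were found in another replicate. Intron 10 (chr1:225406833-225410290, 3458 nt) held 15, of which 1 was in replicate 1 and 7 in each of the others, so much of the difference between libraries lay there (5, 103 and 115 reads). The share of LBR clusters in intron 7 was 4.22 times its share of the length, percentile 88.8 among the same 4574 genes, of which 10% exceeded 4.43. For the intron with most clusters, the percentile was 83.5 in TMPO, 64.2 in SUN1, 45.3 in SYNE2, 44.9 in LMNA and 27.7 in LMNB2. Just 1 LBR cluster, in replicate 2, was classed as 3′ UTR.

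TMPO encodes the LAP2 proteins, a family of mostly membrane-bound splice forms that includes LAP2-alpha, which is nucleoplasmic and binds A-type lamins. Read levels were 91.8, 106 and 52.2 normalised reads (mean 83.4 ± 27.9, SD, n = 3) from 9, 12 and 6 clusters. The exon used as the last exon of TMPO-202 (chr12:98532823-98535634, 2812 nt), which lies inside intron 3 of the canonical transcript TMPO-212, held 12 of the 27 clusters. It covers 8.09% of the gene and held 62.3% of its reads, with 5, 4 and 3 clusters and 96, 68 and 51 reads in replicates 1, 2 and 3. Of these clusters, 8 were classed as coding and 4 as 3′ UTR. In each replicate the TMPO cluster with most reads lay in the coding part of this exon, with 44, 29 and 28 reads, at a different position each time. At the site printed above, 18 and 13 reads in replicates 1 and 3 covered 37 shared nt. With 2 more coding clusters elsewhere, TMPO reached 10, and 0.394% of protein-coding genes with a cluster had 10 or more.

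EMD encodes emerin, a LEM-domain protein of the inner membrane that binds BANF1 and lamins. It is a short gene of 2302 nt, and its 3, 3 and 1 clusters gave the highest density of the 10, 10.1 ± 5.02 clusters per 10 kb (SD, n = 3). With at least 3 conversion locations required, it was 2.90, below BANF1 at 3.47. With at least 3 distinct reads required, EMD was at 8.69 and BANF1 at 0. The EMD read level was 84.2, 15.1 and 5.89 normalised reads (mean 35.1 ± 42.8, SD, n = 3). Replicate 1 was far above the others, and without it the mean was 10.5. A single 3′ UTR cluster made most of that value, with 104 of the 122 reads of replicate 1, and 43.3% of the 104 reads carried a T-to-C change. They came from 39 distinct reads. That cluster had no counterpart in replicates 2 and 3. The position found in more than 1 replicate was in intron 3, with 6 and 8 reads in replicates 2 and 3 over 29 shared nt.

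BANF1 encodes the barrier-to-autointegration factor, a small DNA-binding protein that brings the envelope back around chromatin after mitosis. In replicate 1 it had 2 clusters with 14 reads, from 4 distinct reads, and it had no cluster in replicates 2 and 3. The deposited tables list no cluster under 4 reads, so weaker signal on BANF1 was not detectable here.

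The LINC complex genes differed widely in read level. SUN1, an inner membrane protein that binds lamin A and the nesprins, had the most reads of the 10 genes, at 267, 185 and 218 normalised reads (mean 223 ± 40.9, SD, n = 3). Its 33, 23 and 21 clusters were spread over many parts. Before the start of the canonical transcript SUN1-203 lay 25 of 77 clusters, all but 2 of them deposited as intron, and 8 of them overlapped across replicates. Intron 1 held 1, 6 and 6 clusters, and intron 17 held 4, 3 and 3. The strongest shared site of the 10 genes was in SUN1 intron 1, with 48 and 19 reads in replicates 2 and 3 over 87 shared nt, and no cluster there in replicate 1.

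SUN2, the partner of SUN1 with a similar role, had 2, 2 and 0 clusters and a read level of 22.1, 18.8 and 0 normalised reads. No SUN2 cluster overlapped another. Replicate 1 had its clusters in introns 1 and 7, and replicate 2 had both in the last exon. SYNE2 encodes nesprin-2, a giant outer membrane protein that binds SUN proteins and actin. It had 11, 9 and 11 clusters and 76.0, 51.2 and 55.9 normalised reads (mean 61.0 ± 13.1, SD, n = 3). Of its 31 clusters, 30 were in introns, spread over a gene of 464.535 kb. Intron 64 held 6 and intron 30 held 5, and 4 SYNE2 clusters in all were found in another replicate. Of the SYNE2 clusters, 19 rested on no more than 2 distinct reads.

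**Figure D3:**
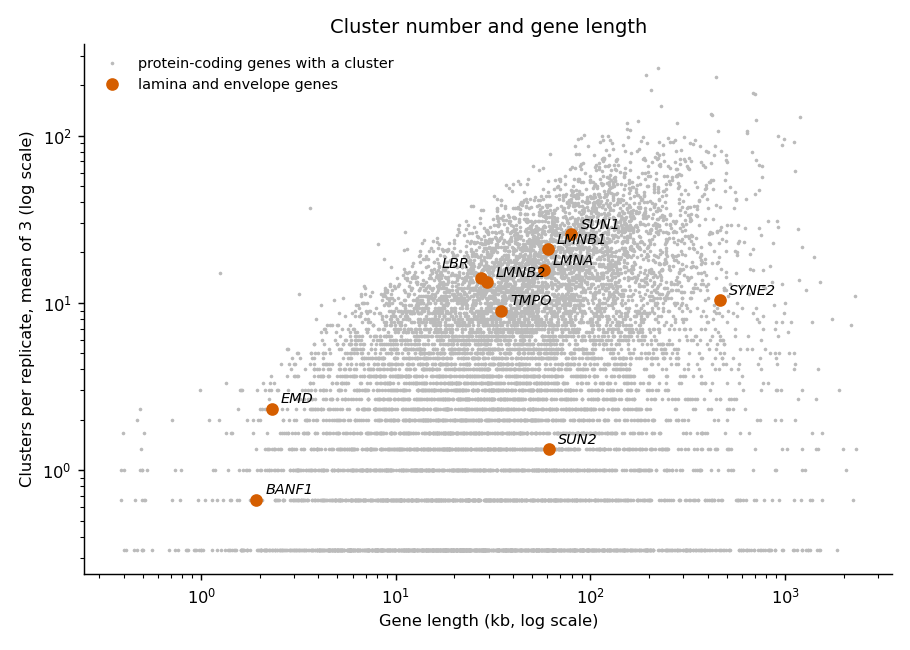
Mean clusters per replicate (log scale) against gene length in kb (log scale) for the 11159 protein-coding genes with a cluster (grey) and for the 10 genes (orange). SYNE2 and SUN2 lie low for their length, with 10.3 and 1.33 clusters, while the other genes lie within or toward the upper part of the cloud.

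Since longer genes had more clusters, genes were ordered by clusters per 10 kb of gene. After EMD came LBR (5.11 ± 1.26), LMNB2 (4.55 ± 2.58), LMNB1 (3.48 ± 0.33), BANF1 (3.47 ± 6.01), SUN1 (3.22 ± 0.81), LMNA (2.72 ± 0.20) and TMPO (2.59 ± 0.86). SYNE2 (0.222 ± 0.025) and SUN2 (0.219 ± 0.190) were lowest (SD, n = 3). The median over 11159 protein-coding genes with a cluster was 1.33. The replicate ranges of neighbours in this order overlapped for every pair except TMPO and SYNE2. Over the canonical transcript alone, in place of the whole annotated gene, LMNA rose to 4.73 and SUN2 to 0.627, and SYNE2 was at 0.277. SUN1 was then at 4.08 and BANF1 at 4.05, both above LMNB1 (3.51), and LMNA stood above LMNB2 (4.63). In SUN1 and SUN2 the annotated span is lengthened by transcripts that reach into neighbouring genes. The order also changed over the whole gene when at least 3 conversion locations were required. LMNB1 was then at 1.43, below SUN1 (1.80) and TMPO (1.44), and LMNA was at 0.985. LBR was at 2.80 and LMNB2 at 2.16.

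The deposited classes differed among the 10 genes. Introns held 56 of 63 LMNB1 clusters, 39 of 42 LBR clusters, 66 of 77 SUN1 clusters and 30 of 31 SYNE2 clusters. The 25 clusters in 3′ UTRs included 11 from LMNB2, and the 22 in coding sequence included 10 from TMPO. SUN1 and LMNA had 3 clusters each in the 3′ UTR. Over the 10 genes, introns held 79.3%, 80.8% and 83.8% of clusters in replicates 1, 2 and 3. In all other genes they held 84.0%, 83.4% and 83.1%, a mean difference of -2.17 percentage points ± 2.69 (SD, n = 3; exact two-sided sign-flip test, p = 0.5). It was -0.933 without replicate 1, -3.60 without replicate 3 and 0.686 without TMPO. For 3′ UTRs the difference was 1.37 ± 2.34 points (higher in 2 of 3 replicates, same exact test, p = 0.5), and it was 0.437 without replicate 2, 2.68 without replicate 3 and -1.31 without LMNB2. Coding clusters made up 8.62%, 5.60% and 5.05% in the 10 genes and 1.75%, 2.06% and 2.09% in others, higher in 3 of 3 replicates. That difference of 4.46 ± 2.11 points was not tested, and fell to 1.81 without TMPO.

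**Figure D4:**
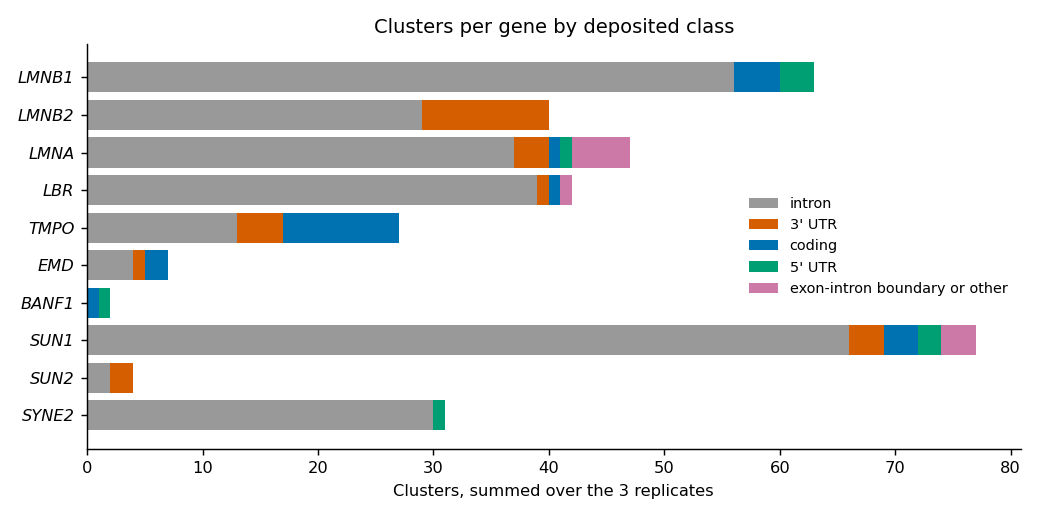
Clusters of each gene, summed over the 3 replicates, by deposited class. Introns (grey) make up most clusters of every gene with more than 10 clusters except TMPO, where coding clusters (10) and 3′ UTR clusters (4) outnumber the 13 in introns.

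A cluster of another replicate overlapped 20.7%, 18.4% and 26.3% of the clusters of the 10 genes, against 21.5%, 21.2% and 22.5% in other genes (mean difference 0.0486 points ± 3.37, SD, n = 3; exact two-sided sign-flip test, p = 1). The sign of this difference changed under several settings. Clusters of both other replicates overlapped 1.72%, 0.800% and 1.01% of clusters in the 10 genes. In other genes the shares were 2.48%, 2.58% and 2.54%, and the difference was not tested. The shares in the 10 genes came only from the LBR intron 7 site, counted in each replicate, and the replicate 1 cluster in LMNB1 exon 1. The replicates therefore do not give separate observations of a lower share. Merged over replicates, the 340 clusters formed 302 sites. Of these 267 were seen in 1 replicate, 33 in 2 and the LBR site in 3, and 1 in LMNB1 exon 1 joined 3 replicates without a base common to all. SUN1 and LMNB1 had 8 sites each in 2 replicates, LMNB2 and LMNA 4 each, LBR and TMPO 3 each, SYNE2 2 and EMD 1. Another 90 clusters lay within 100 nt of a cluster of another replicate without touching it. Counting touching ones too, 48.3% ± 6.16 of clusters in the 10 genes and 43.8% ± 1.53 in other genes had a cluster of another replicate within 100 nt (SD, n = 3), higher in the 10 genes in 2 of 3 replicates. Moved by 1000 nt along the chromosome, 12.9% ± 2.88 of the clusters still met a cluster of another replicate, against 21.8% ± 4.04 in place (SD, n = 3).

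Conversion per T, the share of T positions in reads that were read as C, was 11.0%, 12.0% and 11.7% in the 10 genes. In other genes it was 10.6%, 11.2% and 11.2%. The difference of 0.566 points ± 0.234 (SD, n = 3) had the same sign in 3 of 3 replicates, for which the exact two-sided sign-flip test gave p = 0.25, the smallest it can give with 3 replicates. Without LMNB2 the difference was 0.214 points. The share of reads with a T-to-C change was lower in the 10 genes in 3 of 3 replicates, at 85.6% ± 1.29 against 86.4% ± 0.63 (SD, n = 3), and was not tested. By gene, conversion ran from 9.89% in EMD to 16.0% in LMNB2 and 19.7% in BANF1, the last over 2 clusters. LMNB2 and BANF1 also had the highest share of G and C, at 62.6% and 62.7%, and whether base content plays a part was not tested.

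ATCTT was searched in the deposited sequences, which are written 5′ to 3′ along the RNA, and its reverse complement AAGAT was counted separately. It was in 28 of the 340 clusters, 9 of them in LBR, 7 each in LMNB1 and SUN1, 2 each in LMNB2 and SYNE2 and 1 in EMD. LMNA, TMPO, SUN2 and BANF1 clusters held none. The share was 5.17%, 8.80% and 11.1% in the 10 genes and 9.78%, 9.02% and 9.22% in other genes (difference -0.979 points ± 3.32, SD, n = 3; exact two-sided sign-flip test, p = 0.75). AAGAT was in 4.86% ± 1.99 of clusters of the 10 genes and 2.96% ± 0.22 of others. No test in the family of 5 sign-flip tests had a Benjamini-Hochberg adjusted exact p below 0.833.

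**Figure D5:**
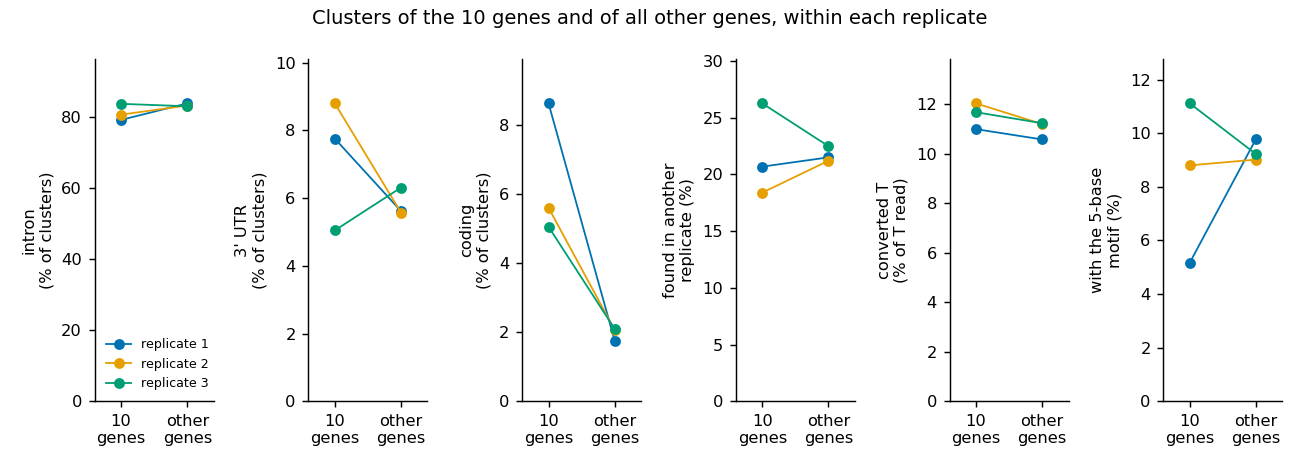
Clusters of the 10 genes and of all other genes, joined within each replicate, for 6 measures in percent, each axis starting at 0. Coding clusters and conversion per T are higher in the 10 genes in 3 of 3 replicates, while the other 4 measures change direction between replicates.

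A wider set of envelope genes gave a background for these values. The list of 31 other envelope genes held LINC complex genes, LEM-domain proteins, torsins, lamin-processing enzymes and the ESCRT proteins that seal the envelope. Of these, 20 had a cluster in every replicate, against 40.7% of all protein-coding genes. A further 4 had one in 2 replicates, 2 in 1 and 5 in none. The 5 without a cluster were SYNE4, KASH5, SPAG4, SUN3 and SUN5, all from the LINC part of the list. SYNE1 and SYNE3, from the same part, were at 0.00646 and 0.0609 clusters per 10 kb. VRK1, a kinase that phosphorylates BANF1, had the highest read level of the 31 genes at 402, 267 and 352 normalised reads. IST1, an ESCRT-III protein, had 237 ± 49.4, and TMEM201, an inner membrane protein, 191 ± 79.8 (SD, n = 3). In a chosen list of 27 nuclear pore genes, all 27 had a cluster in every replicate, against the same 40.7%. The highest read levels in that list were 413 ± 40.1 for NUP214, 392 ± 273 for RAE1 and 365 ± 131 for POM121. Median clusters per 10 kb were 3.34 for the 10 lamina and envelope genes, 1.77 for the other envelope genes and 2.74 for the pore genes. The 5 envelope genes without a cluster were counted in the 1.77, whereas every gene of the other 2 lists had a cluster. Median gene length also differed between the lists. Neither difference was adjusted for, and the medians are a description without a test.

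In the libraries as a whole, clusters held 1506682 to 1649124 reads, and read counts per gene differed between replicates by far more than counting noise (chi-square over degrees of freedom 17.5 to 18.1). Of 6 genes listed as markers of HEK293 cells, LIN28B had a cluster in every replicate, PAX2 and TUBB3 in 2 and NEFM, NEFL and ZIC2 in none. None of 8 marker genes of blood, liver, muscle, connective tissue and pancreatic islet cells had a cluster in any replicate. Cluster tables show bound RNA only, so absence of a marker does not measure its expression.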

How the data were processed

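The authors deposited 1 cluster table per replicate, called separately. Per the file headers, read, distinct read and conversion numbers are counts, and T-to-C reads over all reads are given as a fraction. The build was hg38, per the submitters' processing notes, and all 340 member clusters matched hg38 at 1-based coordinates. The aligner, cluster caller and annotation release are not given in the sources used here. Clusters with fewer than 4 reads are not in the tables. Counting errors apply to reads without molecular identifiers.

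Member clusters were taken by gene name. Read levels were scaled to 1000000 reads in gene-annotated clusters. Overlap required at least 1 nt on the same strand. Other genes were all annotated nuclear genes outside the 10. Exons and introns came from canonical transcripts of GENCODE release 44. Differences within replicates were tested with exact sign-flip tests, and the overlap step was tested on simulated data. Python 3.11.15, pandas 2.3.3 and numpy 2.4.6 were used.

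The members and lists were chosen with earlier results of these data known. Named were all 10 genes, the 3 genes of each list with the highest mean read level among those found in every replicate, clusters found in all replicates and the largest cluster per gene and replicate. Other sites, windows and exons were chosen after their values were seen. The labels call the replicates biological and do not say how they were cultured.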

Additional observations from a re-analysis of the deposited data

Results flagged for a closer look

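The SUN2 span carried far more signal on the opposite strand than on its own. Clusters on the opposite strand of SUN2 held 279, 355 and 242 reads in replicates 1, 2 and 3, a mean of 292, in 22, 30 and 27 clusters, while SUN2 itself had 32, 25 and 0 reads. These clusters were not counted for SUN2 because the tables assign them to other names or to none (12, 14 and 12 without a gene name). Those with a name were among the clusters of other genes in the comparisons, and those without one were outside them. Over the canonical SUN2 transcript alone lay 12, 19 and 16 of them, with 94, 224 and 152 reads. GENCODE lists GTPBP1 and 5 long non-coding genes on that strand within the span. In the other 9 genes, the opposite strand held 1 cluster, of 7 reads, in LMNA.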

How the results depend on the processing

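No paired analysis was possible because the study has 1 group of samples, so no groups share replicate numbers; members and other genes were compared within each replicate throughout. Of the results that answer a comparison, 104 recomputed values kept their direction, though many changed in size. For counts this meant staying within 1.5 times, and for untested values moving by less than 1 SD. Another 12 values changed direction and 10 moved beyond those limits. Among the values given per gene, 136 stayed within the limits and 34 did not. The intron difference ranged from -3.99 to 0.686, the 3′ UTR difference from -1.31 to 2.998, conversion per T from 0.214 to 0.961, and recurrence from -8.00 to 4.50. Clusters per replicate in the 10 genes (113) fell to 73.3 at a minimum of 3 distinct reads and to 52.3 at a minimum of 3 conversion locations, since fewer clusters were kept. The intron difference was 0.686 without TMPO, and the 3′ UTR difference -1.31 without LMNB2. The coding difference was 1.81 without TMPO. The recurrence difference was -1.02 with at least 3 distinct reads, -8.00 with at least 3 conversion locations, -1.24 with overlap of at least 50% of both clusters, -1.76 without LMNB1, -0.148 without TMPO and -0.142 without EMD. Leaving out 1 replicate in turn gave -2.25 to 0.967. The ATCTT difference was 0.400 without LMNA, and -2.41 to 0.837 leaving out 1 replicate in turn. Recurrence in place minus that after moving (8.92 points) was 2.94 with at least 3 conversion locations, 6.15 after moving by 200 nt, 19.0 after moving by 5000 nt, 6.77 with overlap of at least 50%, and 3.47 to 5.40 leaving out 1 replicate in turn, where each cluster has 1 library fewer to meet. For the other shifts the cause was not tested. Leaving out single genes (other than SYNE2, which was planned for all but recurrence and coding), clusters within 100 nt, the canonical transcript length and every setting of the coding difference were added after seeing the data. Depth limits single sites: 120 of the 340 clusters rested on no more than 2 distinct reads and 48 on no more than 5 reads.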
